A study of Mus musculus with 8 samples.

Results

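Thymic lymphomas labelled as having lost ΔNp73 were set against thymic lymphomas labelled as having lost ΔNp63. The comparison holds 6 of the 8 libraries of the series, taken by genotype label: 3 labelled ΔNp73Δ/Δ;p53-/- and 3 labelled ΔNp63Δ/Δ;p53-/-. By label, the mice of every group were C57BL/6 animals without p53. The virus went straight into the lymphoma at an age of 10 weeks, and the tissue was taken 48 hours later. Both deletion groups received Ad-CRE-mCherry, an adenovirus that carries the fluorescent marker mCherry and Cre, the recombinase that cuts out DNA between loxP sites. They therefore share the virus and the recombinase, and by label they differ in the deleted gene alone. The remaining 2 libraries, labelled ΔNfl/fl;p53-/- and given Ad-mCherry without Cre, served as a reference point and entered the shared estimate of the spread. Their label does not say which of the ΔN genes carries loxP sites. The labels do not state what share of the tumour cells the virus reached, nor whether each library of a group is another animal's tumour, so a p-value measures only the spread between these libraries, which may be technical. Libraries are named below by their label and numbered in the order in which the samples are listed.

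p63 and p73 are transcription factors related to p53. Each gene has an internal promoter that gives ΔN forms, which lack the N-terminal activation domain and can hold the full-length family members off shared target sites. ΔNp63 is best known for maintaining the basal cells of stratified epithelia and the epithelium of the thymus, and ΔNp73 for opposing p53 and TAp73 and for being itself induced by them. Thymic lymphomas of p53-null mice are tumours of immature T cells that lie among the stroma, the epithelium and the phagocytes of the thymus.

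Values are FPKM (sequenced fragments set against transcript length and library size), quantile-normalised between libraries by the authors, so that all libraries share 1 distribution and a change in total RNA cannot be seen. The depth of the libraries is unknown. T cell genes were high in all 8 libraries, with the T cell receptor gene Cd3e at 235 to 430 FPKM and the kinase gene Lck at 78.3 to 252. ΔNp63-labelled replicate 2 lay away from all others in many gene groups, as described below, and each count and list is given with and without it. The Y-linked gene Ddx3y was at 17.3 FPKM in control replicate 1 and 21.4 in ΔNp73-labelled replicate 1 and at most 0.07 in the others. By this gene the control and ΔNp73-labelled groups were thus mixed, while all 3 ΔNp63-labelled libraries lay near 0. If it marks sex in these tumours, sex was not balanced between the deletion groups. The labels do not give the sex. The targeted gene gave only a mixed and limited check of the labels, since its entries were not sorted into ΔN and full-length forms. The highest Trp63 entry, a transcript of the gene targeted in the ΔNp63-labelled tumours, was at 6.57, 1.05 and 9.91 FPKM in that group and at 13.8, 11.3 and 6.38 in the ΔNp73-labelled group, overlapping, with a log2 difference of 0.997 (SE 0.60, adjusted p = 0.52 by limma) that came to 0.28 (adjusted p = 0.706) without replicate 2. Of the other 3 Trp63 entries, 2 did not overlap and were lower in the ΔNp63-labelled group, at 3.72, 0.777 and 5.92 against 11.4, 9.03 and 10.4 FPKM and at 2.60, 0.0394 and 3.98 against 6.81, 4.49 and 5.11, with the controls at 3.44 and 7.37 and at 4.53 and 3.71. In the first of these 2 entries, ΔNp63-labelled replicates 1 and 3 lay within the range of the controls. In the second, replicate 3 did and replicate 1 lay below it. The last entry overlapped. Trp53 was at 17.3, 16.1 and 46.3 against 66.1, 75.9 and 10.96 FPKM, also overlapping, although the labels give a p53-null genotype throughout. Trp73 was not analysed here, so the deletion named in the ΔNp73 label was not checked.

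A few genes separated the groups by a wide margin. Of 12921 genes tested with limma on log2(FPKM + 1), 7 passed an adjusted p of 0.05 (0.0542%), 4 higher (0.031%) and 3 lower (0.0232%) in the ΔNp73-labelled tumours, while 1358 (10.5%) had an unadjusted p under 0.05. With array weights, which let a library that deviates count for less, 344 genes passed (2.66%), among them all 7. The 4 that were higher are Trim12a, Synpr, Extl1 and the small nuclear RNA gene Rnu12. The 3 that were lower are H2-T10, Ugt8a and the small nucleolar RNA gene Snora65. A log2 difference is always ΔNp73-labelled minus ΔNp63-labelled on the log2(FPKM + 1) scale, which understates the change of genes near 0.

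Trim12a belongs to a mouse cluster of TRIM-family genes related to the antiviral restriction factor TRIM5. Trim12a stood at 0.346, 0.200 and 0.226 FPKM with the ΔNp63 label, against 15.1, 14.7 and 11.9 with the ΔNp73 label and 10.85 and 10.48 in the controls. The ΔNp63-labelled libraries thus stood alone, all near 0, and the mean ratio between the deletion groups was 53.9, with a log2 difference of 3.56 (SE 0.14, adjusted p = 0.000113). Its neighbour Trim12c, a close paralogue, had 2 transcript entries that went opposite ways: one was at 13.0, 6.80 and 15.4 FPKM in the ΔNp63-labelled and 26.6, 30.5 and 28.4 in the ΔNp73-labelled libraries, the other at 22.5, 11.0 and 24.9 against 8.02, 9.94 and 11.5. Reads that fit both paralogues could have been split between them, so the level of each of these entries is uncertain. Trim12c was named after its values were seen.

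Synpr encodes synaptoporin, a membrane protein of synaptic vesicles. Its level was 0.182, 0.130 and 0.717 FPKM under the ΔNp63 label and 12.1, 13.6 and 18.6 under the ΔNp73 label, a log2 difference of 3.56 (SE 0.23, adjusted p = 0.00137), with the controls at 8.31 and 6.73. Extl1, a glycosyltransferase gene of heparan sulfate synthesis, showed a smaller step, from 1.004, 0.667 and 0.868 FPKM to 4.02, 3.30 and 3.47, with the controls at 3.08 and 2.91 (log2 difference 1.32, SE 0.14, adjusted p = 0.0392). The groups did not overlap for either gene. The Extl1 call was lost when any 1 library other than ΔNp63-labelled replicate 2 was left out, with adjusted p from 0.151 without ΔNp63-labelled replicate 1 to 0.275 without ΔNp73-labelled replicate 2.

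H2-T10 lies in the T region of the mouse major histocompatibility complex; it is a nonclassical class I gene known as a ligand of some γδ T cells, and RefSeq annotates it as a transcribed pseudogene in GRCm38.p6. H2-T10 reached 33.5, 22.5 and 41.1 FPKM in the ΔNp63-labelled libraries and at most 0.154 in the ΔNp73-labelled libraries, with the controls at 0.469 and 0.126 (log2 difference -4.89, SE 0.23, adjusted p = 0.000333). A separately listed transcript of the same gene was less clear-cut, at 33.9, 11.1 and 41.0 against 11.4, 8.83 and 6.61 FPKM, where replicate 2 lay inside the range of the other group (adjusted p = 0.439). Class I genes of this region are near-identical in part, so how reads were shared among them is uncertain. Ugt8a makes galactosylceramide, the main glycolipid of myelin. It was at 5.25, 7.18 and 5.27 FPKM in the ΔNp63-labelled libraries and at most 0.0410 in the ΔNp73-labelled libraries (log2 difference -2.74, SE 0.15, adjusted p = 0.000615), with the controls at 0.0638 and 0.0283. In both genes all 3 ΔNp63-labelled libraries were on and the other 5 were near 0.

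**Figure D1:**
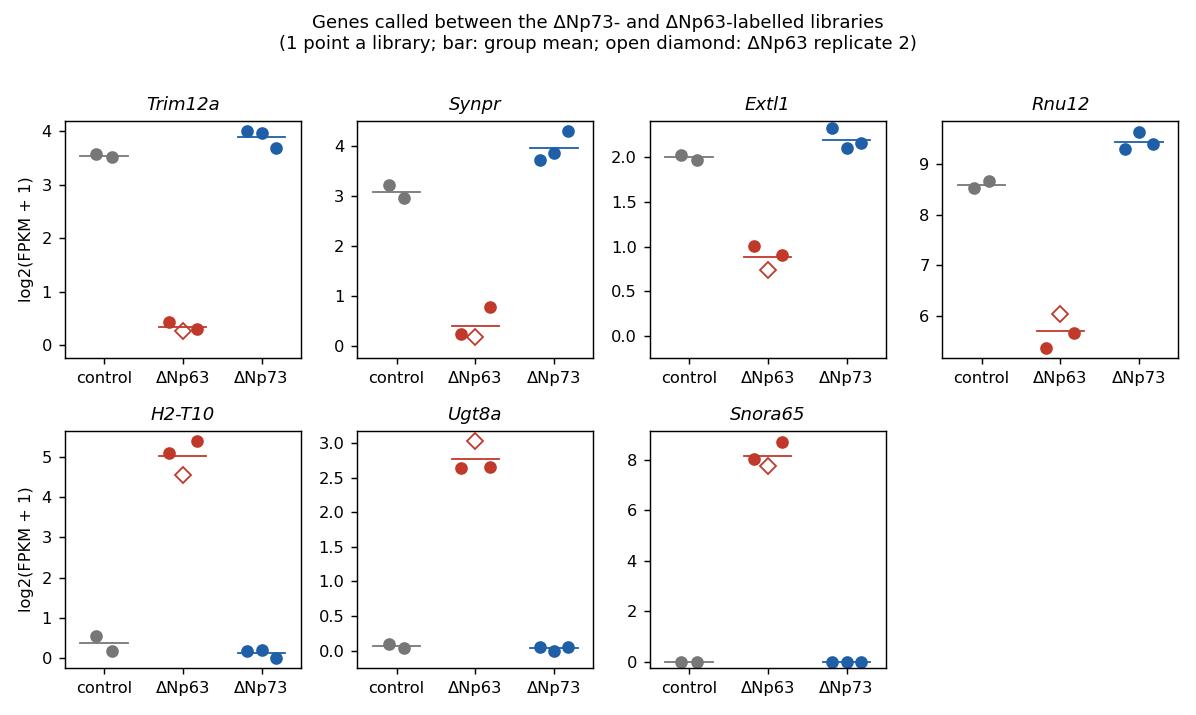
The 7 genes that differed between the deletion groups, 1 panel a gene, with the library group on the x axis and log2(FPKM + 1) on the y axis. Each point is a library, each bar a group mean, and the open diamond is ΔNp63-labelled replicate 2. That library lies beside its own group in all 7 panels. The calls were made with it included, which favours this position, so it is no check of its label. The controls lie nearer the ΔNp73-labelled libraries.

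The sequences of both small RNAs are shown because their differences are among the largest of the comparison. Snora65 is an H/ACA small nucleolar RNA, of the class that guides the conversion of uridine to pseudouridine in ribosomal RNA, and Rnu12 is the U12 small nuclear RNA, which pairs with the branch site of the rare U12-type introns. The transcripts are those of GENCODE M21 on GRCm38, written 5′ to 3′ as DNA. Capitals in Snora65 mark the ACA that gives the class its name, 3 bases before the end. Capitals in Rnu12 mark the stretch that is the reverse complement of TTCCTTA, the start of the U12-type branch site.
Snora65: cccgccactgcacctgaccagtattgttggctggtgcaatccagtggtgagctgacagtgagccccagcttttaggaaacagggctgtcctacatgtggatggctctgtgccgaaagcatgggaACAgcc
Rnu12: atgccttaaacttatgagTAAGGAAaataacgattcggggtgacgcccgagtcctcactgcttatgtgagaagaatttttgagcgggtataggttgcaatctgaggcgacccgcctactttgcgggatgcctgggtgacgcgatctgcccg

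Snora65 reached 261, 214 and 424 FPKM in the ΔNp63-labelled libraries and was listed at 0 in the other 5, so no ratio can be given (log2 difference -8.17, SE 0.24, adjusted p = 2.82e-05). It lies inside the ribosomal protein gene Rpl12 on the same strand, and Rpl12 itself was at 1309, 1206 and 1248 FPKM in the ΔNp63-labelled against 950, 1077 and 1077 in the ΔNp73-labelled libraries. Rnu12 was at 40.4, 64.6 and 49.6 FPKM under the ΔNp63 label, 626, 800 and 671 under the ΔNp73 label, and 366 and 404 in the controls (log2 difference 3.75, SE 0.20, adjusted p = 0.000504). For both genes the deletion groups were far apart.

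Small RNA genes as a class were erratic in this table, and that was measured beside these calls. Of 29 small nucleolar, small nuclear and guide RNA genes tested, 24 were listed at 0 in 1 library and above 1 FPKM in another library of the same group. Rnu11, the partner of Rnu12 in the minor spliceosome, was the highest entry of the table at 21770 FPKM in the controls, in all 3 ΔNp73-labelled libraries and in ΔNp63-labelled replicate 2, but at 1341 and 0 in ΔNp63-labelled replicates 1 and 3. Snora65 and Rnu12 were not of this mixed kind, each group keeping to its own side, as a call requires. The part of this variation in the calls was not tested. Rnu11, Rpl12, Snora65 and Rnu12 fall outside the naming rule and were chosen with their values in view.

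In 7 of the 7 called genes both controls lay nearer the ΔNp73-labelled than the ΔNp63-labelled mean, so the ΔNp63-labelled libraries were those set apart. Among the 2437 genes whose deletion groups did not overlap, 1329 higher (10.3% of those tested) and 1108 lower (8.58%) in the ΔNp73-labelled libraries, the controls lay nearer the ΔNp73-labelled mean for 24.8% and nearer the ΔNp63-labelled mean for 59.6%. Over all genes tested these shares were 30.3% and 53.1%. For the 19 genes called without ΔNp63-labelled replicate 2, described below, that library lay nearer the other ΔNp63-labelled libraries in 14 (73.7%), against 55.9% of all genes tested. These 19 include the 7 genes called with that library in the fit, and it lay nearer its own group in all 7. The 73.7% therefore does not describe the added genes alone.

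Further genes were named for a small unadjusted p without passing in the comparison with all libraries, and of those given here only Dzip1 came near the threshold. Dzip1, which acts in forming primary cilia, was at 1.97, 2.17 and 2.54 FPKM against 11.3, 13.3 and 16.2 (log2 difference 2.17, SE 0.25, adjusted p = 0.0645), with the controls at 8.48 and 16.8. Rab6b, a small GTPase gene of Golgi transport, was at 0.224, 0.364 and 0.403 FPKM against 2.54, 4.55 and 7.36 (2.04, adjusted p = 0.178). Values ran the other way for H60b, a stress ligand of the NKG2D receptor (-1.30), the zinc importer gene Slc39a2 (-1.48) and Dad1, a subunit of the oligosaccharyltransferase that glycosylates nascent proteins (-0.73), with adjusted p from 0.223 to 0.285. Dad1 was at 364, 381 and 329 FPKM in the ΔNp63-labelled and 197, 221 and 227 in the ΔNp73-labelled libraries, so even this abundant gene did not overlap between the groups.

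Without ΔNp63-labelled replicate 2, 19 of 12782 genes were called (0.149%), 8 higher (0.0626%) and 11 lower (0.0861%), and they included all 7. The median standard error of a gene was 0.137 on the log2 scale, against 0.21 with all libraries, and 1993 genes (15.6%) had an unadjusted p under 0.05. Of the 12 added genes, 4 were higher in the ΔNp73-labelled libraries: Cd96, Mtap7, Lynx1 and Epb4.1l3. The 8 that were lower are Ly6k, Psca, B2m, Dtx1, Xlr4b, the second listed H2-T10 transcript, the long noncoding RNA gene Gm13546 and 2310007L24Rik (Prr29 in RefSeq); the last 3 fall outside the naming rule and were named after their values were seen.

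Cd96, a receptor of T and natural killer cells, was at 8.90 and 9.602 FPKM in ΔNp63-labelled replicates 1 and 3, at 3.35 in replicate 2, and from 31.5 to 43.7 in the ΔNp73-labelled group. Its difference of 1.96 (SE 0.15, adjusted p = 0.00559) was 2.38 with replicate 2 included, where the wider spread left the adjusted p at 0.178. Mtap7, which binds microtubules and recruits kinesin, was at 2.01, 0.803 and 2.65 against 7.54, 10.2 and 10.2 FPKM (1.63, adjusted p = 0.0188). For these genes replicate 2 lay farther from the ΔNp73-labelled libraries than its group did, and the controls, at 47.8 and 47.4 for Cd96 and 8.44 and 9.47 for Mtap7, lay with the ΔNp73-labelled libraries. Epb4.1l3, a membrane-cytoskeleton linker gene, differed in the other sense: it was at 10.8, 10.8 and 10.5 FPKM in the ΔNp73-labelled group, and at 5.58, 2.98 and 5.36 in the ΔNp63-labelled and 5.17 and 4.63 in the control libraries (0.85, adjusted p = 0.0283).

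A cluster of Ly6 superfamily genes, which encode small proteins on or near the cell surface, held 3 of the added calls. Ly6k was at 40.9, 177.4 and 28.9 FPKM with the ΔNp63 label and 1.87, 2.47 and 3.90 with the ΔNp73 label, with the controls between them at 9.28 and 8.46. It was the only one of the 3 for which replicate 2 was the highest of its group, and its difference was -4.05 (adjusted p = 0.185) with that library and -3.28 (SE 0.24, adjusted p = 0.00484) without. Psca, known as prostate stem cell antigen, was at 32.6, 9.98 and 18.6 FPKM against 2.71, 2.15 and 2.88 (-2.85 without replicate 2, SE 0.23, adjusted p = 0.0064), with the controls at 3.30 and 2.79. Lynx1, a modulator of nicotinic acetylcholine receptors, went the other way, at 1.14, 0.428 and 1.32 against 3.97, 4.17 and 4.26 (1.20, SE 0.10, adjusted p = 0.00726), with the controls at 6.18 and 6.08. In RefSeq's GRCm38.p6 these genes lie in 1 run with Lypd2 and Ly6e. Lypd2 was at 4.48, 3.63 and 2.09 FPKM against 0.899, 1.16 and 1.69, and Ly6e at 400, 491 and 482 against 327, 358 and 299, and neither passed (adjusted p = 0.194 and 0.226 without replicate 2). This pair was named after its values were seen. Of 18 members of the family tested, 5 were lower and 2 higher in the ΔNp73-labelled libraries at an unadjusted p under 0.05 with all libraries, where 4.4% and 6.11% of all genes tested were. By sign alone 9 lay above 0 and 9 below with all libraries (median -0.05), and 4 and 14 without replicate 2 (median -0.335). Ly6a, the family member with the highest mean, overlapped at 1088, 188 and 1122 FPKM against 1101, 1008 and 424.

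**Figure D2:**
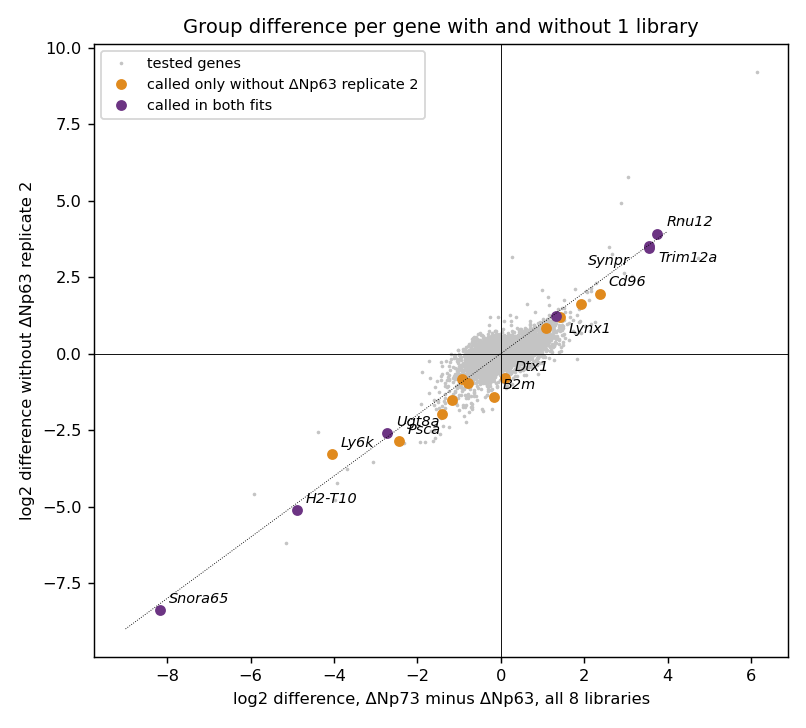
Difference between the ΔNp73- and ΔNp63-labelled groups per gene on the log2(FPKM + 1) scale, with all 8 libraries on the x axis and without ΔNp63-labelled replicate 2 on the y axis; grey points are tested genes, orange points the 12 called on the y axis alone, purple points the 7 called on both, and the dotted line marks equal values. B2m and Dtx1 sit near 0 on the x axis and at -1.40 and -0.79 on the y axis, and Ly6k lies at -4.05 and -3.28.

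B2m and Dtx1 were the calls that rested most on leaving replicate 2 out. B2m, the light chain of all class I molecules, was at 21770 FPKM in ΔNp63-labelled replicates 1 and 3, at 1686 in replicate 2 and at 8241 in all 3 ΔNp73-labelled libraries, and its difference was -0.17 (adjusted p = 0.932) with replicate 2 and -1.40 (adjusted p = 0.0223) without. These are rank values: the normalisation writes 21770 for the highest entry of every library and 8241 for the next. B2m held the top rank in the 2 libraries where Rnu11 was low, rank 2 behind Rnu11 in the ΔNp73-labelled libraries, and rank 8 in both controls, at 3186. The size of its difference is thus set by the step between these ranks. Its values within each group without replicate 2 are equal for the same reason, so its adjusted p does not measure a spread in B2m. Dtx1 encodes Deltex, a regulator and target of Notch. It was at 7.64 and 7.33 FPKM in ΔNp63-labelled replicates 1 and 3 and 3.94, 3.86 and 3.89 in the ΔNp73-labelled libraries, but at 0.291 in replicate 2, and its difference turned from 0.11 (adjusted p = 0.94) with replicate 2 to -0.79 (SE 0.09, adjusted p = 0.0434) without.

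Xlr4b, an X-linked lymphocyte-regulated gene, was at 8.02, 10.0 and 7.59 FPKM in the ΔNp63-labelled and 4.01, 3.91 and 3.98 in the ΔNp73-labelled libraries, with the controls at 6.65 and 5.73 (-0.83 without replicate 2, SE 0.10, adjusted p = 0.0459). Its near-identical neighbours Xlr4a (-0.62) and Xlr4c (-0.57), named after their values were seen, did not pass (adjusted p = 0.117 and 0.16), and their groups did not overlap either. Reads may be shared among the 3 copies.

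Gene lists were described by their counts and medians, beside the same values over all genes tested, for which the median difference was -0.02 with all libraries and -0.01 without replicate 2. Of 42 lists with at least 5 members tested, 31 had a median above 0 with all libraries and 26 without replicate 2, and for 13 the sign of the median differed between the fits. Over single genes, 48.1% lay above 0 and 51.9% below with all libraries, and 48.9% and 51.1% without replicate 2. By its median level replicate 2 was the lowest of its group in the stromal, epithelial, macrophage, neutrophil and interferon lists and the highest in those of mitosis and DNA replication.

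**Figure D3:**
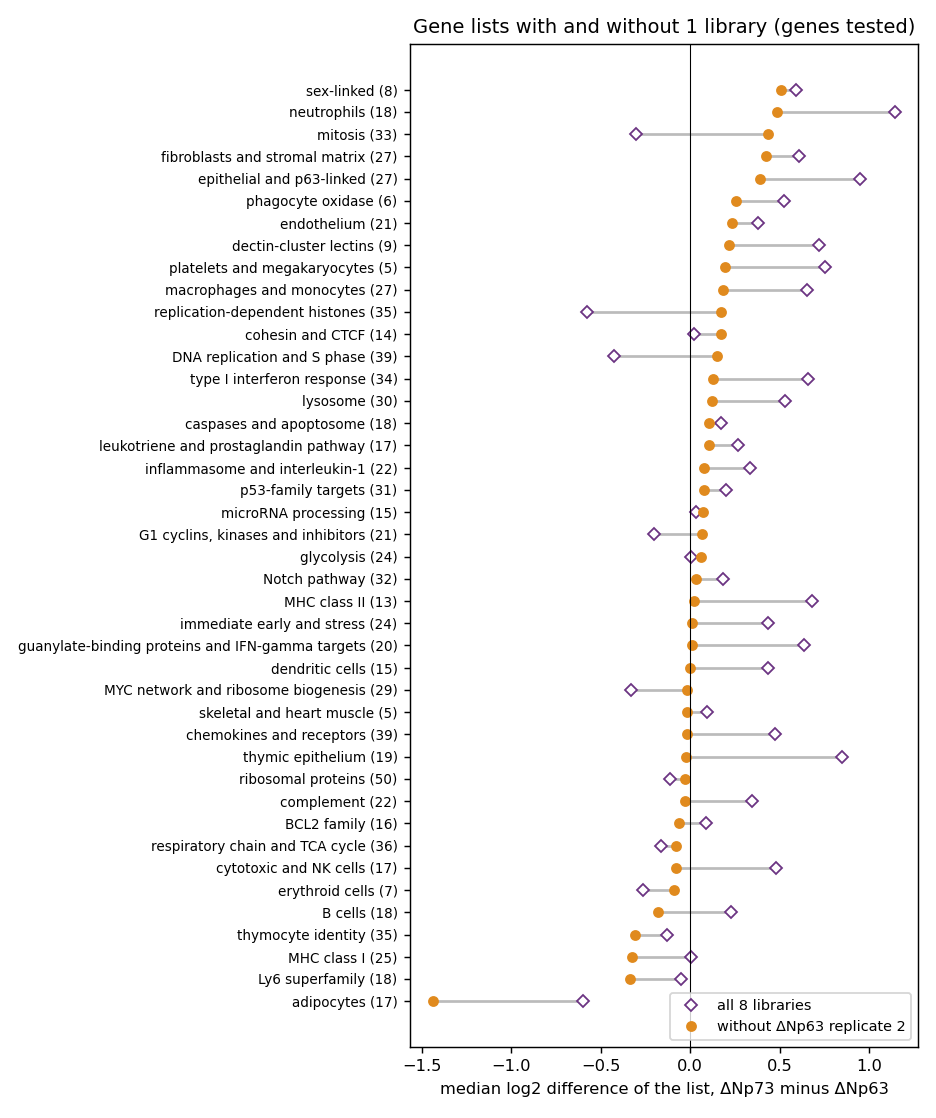
Median difference of each of 42 gene lists (number of genes tested in brackets) on the log2(FPKM + 1) scale, with all 8 libraries (open diamonds) and without ΔNp63-labelled replicate 2 (filled circles). The stromal list and the epithelial and p63-linked list stay above 0 in both fits, at 0.61 and 0.95 against 0.43 and 0.39. The thymic epithelium list moves from 0.85 to -0.02, and the mitosis list from -0.30 to 0.44.

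Genes of stromal matrix and of the epithelial and p63-linked list were often higher in the ΔNp73-labelled libraries at an unadjusted p in both fits. Of either list 0 members passed over all genes. Of 27 genes of fibroblasts and stromal matrix, 13 were higher and 0 lower at an unadjusted p under 0.05 with all libraries, and 14 and 0 without replicate 2, where 8.16% of all genes tested were higher and 7.43% lower. The groups did not overlap for 15 and for 16 members in the higher direction, against 10.3% and 16.0% of all genes tested, and 0 in the lower direction, against 8.58% and 15.2%. Of 27 epithelial and p63-linked genes, 11 were higher with all libraries and 12 without replicate 2, with 14 and 15 not overlapping, and 0 lower. The thymic epithelium list did not keep to this. Of its 19 genes, 3 were higher and 0 lower with all libraries (median 0.85), where 6.11% and 4.4% of all genes were. Without replicate 2 it was 3 and 3, with 9 genes above 0 and 10 below (median -0.02).

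Col1a1, the main fibrillar collagen of stroma, was at 22.8, 9.30 and 15.1 FPKM in the ΔNp63-labelled and 30.9, 37.0 and 50.3 in the ΔNp73-labelled libraries, with the controls at 4.59 and 4.29 (1.33 with all libraries, adjusted p = 0.369; 1.02 without replicate 2, adjusted p = 0.138). Fn1, fibronectin, was at 10.8, 4.505 and 8.58 against 21.8, 26.7 and 18.1, and Vim, the intermediate filament of mesenchymal cells, at 213, 63.1 and 241 against 413, 351 and 346 (without replicate 2 1.11 and 0.70, adjusted p = 0.0843 and 0.0887). Both deletion groups other than replicate 2 lay above the controls in these genes, and the ΔNp73-labelled libraries were the highest. Postn, periostin, ran alike at 16.6, 7.32 and 17.6 against 23.7, 30.8 and 27.2. Col1a1 falls outside the naming rule and was chosen after its values were seen.

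Cdh1, the adhesion molecule of epithelial cells, was at 21.4, 5.63 and 22.4 FPKM in the ΔNp63-labelled and 33.7, 34.7 and 29.7 in the ΔNp73-labelled libraries, with the controls at 11.0 and 11.3 (1.15 with all libraries; 0.56 without replicate 2, adjusted p = 0.0925). The desmosome genes Dsc2 (0.71) and Dsp (0.60) and Lamb3, a chain of basement membrane laminin (0.79), had adjusted p from 0.115 to 0.125 without replicate 2. In each of these 4 genes no library of one group reached the other. Krt5, a keratin of basal cells and a known target of ΔNp63, overlapped at 133.6, 24.7 and 110.9 against 144.8, 173.1 and 113.3. The controls were at 76.14 and 76.95, below ΔNp63-labelled replicates 1 and 3.

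**Figure D4:**
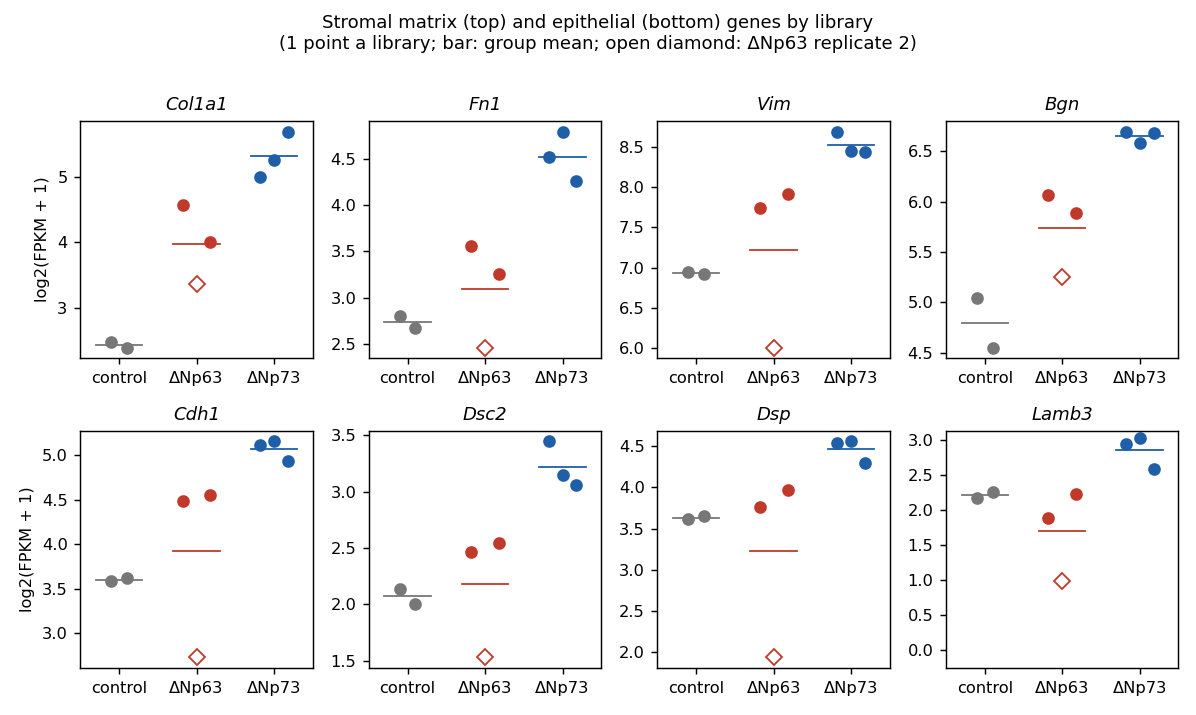
Stromal matrix genes (top) and epithelial genes (bottom) by library group, with log2(FPKM + 1) on the y axis, 1 point a library, bars at group means and an open diamond for ΔNp63-labelled replicate 2. In all 8 panels the 3 ΔNp73-labelled libraries lie above the 3 ΔNp63-labelled libraries, and replicate 2 is the lowest of its group.

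The whole stromal list stood 1.08 to 1.35 log2 units above control (median of its members) in the ΔNp73-labelled libraries and -0.02 to 0.87 in the ΔNp63-labelled ones. Its summed level was 1540 to 1680 FPKM against 963 to 1490, with the controls at 1580 and 1820, a sum that includes Thy1, also a T cell gene, at 462 to 1480. The epithelial and p63-linked list stood at 0.48 to 0.94 against -0.87 to 0.37. ΔNp63-labelled replicates 1 and 3, at 0.37 and 0.36, lay above control, and replicate 2 lay below it. The summed level of this list was 494 to 720 FPKM against 135 to 488, with the controls at 320 and 337. No member of either list was listed at 0 in any library. Their part in other differences was not tested. In whole tumours, fewer cells of a type and less RNA per cell cannot be told apart.

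Genes of dividing cells depended on which ΔNp63-labelled libraries were counted. With all libraries 2 of 33 mitosis genes lay above 0 (median -0.30), and without replicate 2 it was 32 of 33 (median 0.44), with 11 higher at an unadjusted p under 0.05, where 8.16% of all genes were, and 0 called. Ccna2, the S and M phase cyclin, was at 13.4, 69.2 and 14.1 FPKM in the ΔNp63-labelled, 19.3, 23.3 and 33.8 in the ΔNp73-labelled and 91.9 and 84.8 in the control libraries. Ect2, needed for cytokinesis, was at 2.70, 15.7 and 2.58 against 4.51, 3.98 and 5.44. Replicate 2 was thus near the controls, while replicates 1 and 3 were the lowest libraries for both genes. By library the mitosis list stood at -1.99, 0.08 and -2.04 log2 units from control in the ΔNp63-labelled group and at -1.97, -1.80 and -1.29 in the ΔNp73-labelled group, so ΔNp73-labelled replicate 1 lay level with the low ΔNp63-labelled libraries. Of 39 DNA replication genes, 0 lay above 0 with all libraries and 31 without replicate 2 (medians -0.43 and 0.15). Of 35 replication-dependent histone genes it was 5 and 24 (-0.57 and 0.17).

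Genes of thymocytes and of class I presentation were more often lower in the ΔNp73-labelled libraries once replicate 2 was left out. Of 35 thymocyte genes, 0 were higher and 11 lower at an unadjusted p under 0.05 (median -0.31), where 7.43% of all genes were lower. With all libraries it was 0 and 2 (median -0.13), where 4.4% of all genes were lower. Ptcra, the pre-T cell receptor chain, was at 8.16, 0.401 and 10.2 FPKM against 3.85, 2.43 and 4.28. Replicate 2 lay below the range of the ΔNp73-labelled libraries. Lck did not overlap with all libraries, at 148, 137 and 168 against 78.3, 90.3 and 122.7 (-0.65, SE 0.19, adjusted p = 0.432).

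Of 25 class I genes, H2-T10 was called with all libraries, and H2-T10 and B2m without replicate 2, B2m on the rank values described above. Without replicate 2, 10 were lower and 0 higher at an unadjusted p under 0.05, against 7.43% and 8.16% of all genes (median -0.32, and 0.01 with all libraries). H2-T3, the thymus leukaemia antigen gene near H2-T10, was at 14.8, 5.33 and 16.9 FPKM against 0.262, 0.409 and 0.752. Its groups did not overlap, but its difference of -3.06 did not pass (SE 0.60, adjusted p = 0.345; 0.0843 without replicate 2), and the controls were split at 5.03 and 0.334. H2-M2, another nonclassical class I gene, was at 48.6, 11.9 and 47.3 against 30.1, 34.0 and 30.0.

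**Figure D5:**
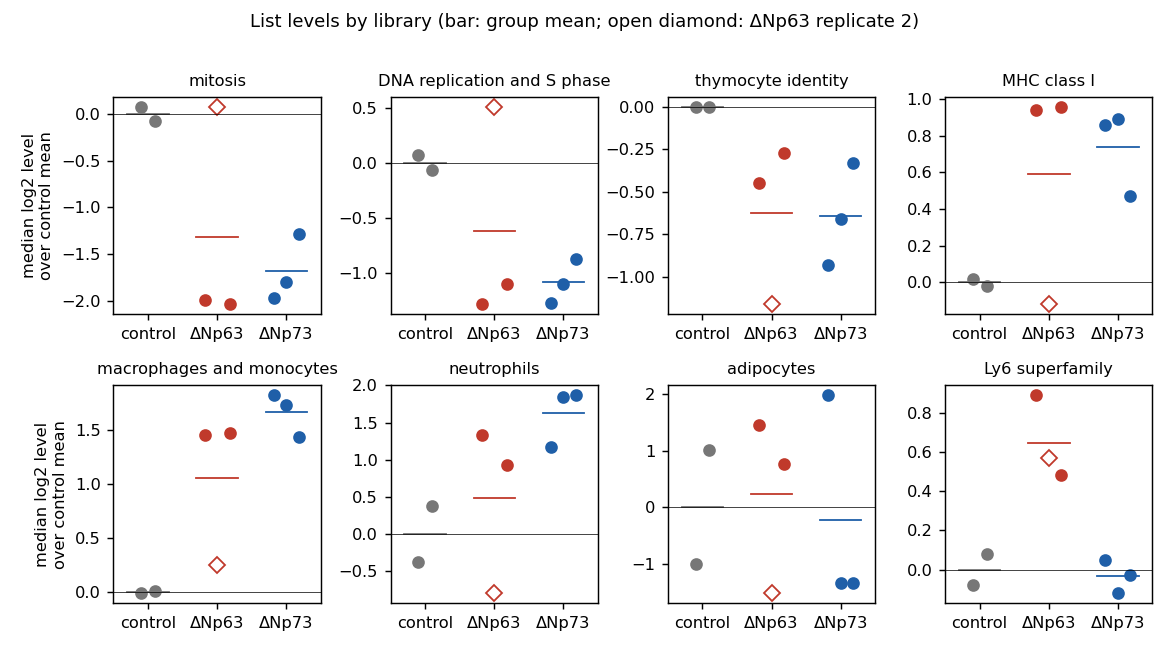
Median level of 8 gene lists in each library, as log2(FPKM + 1) minus the control mean of each gene, by library group; bars are group means and the open diamond is ΔNp63-labelled replicate 2. Replicate 2 is the farthest of its group from the ΔNp73-labelled libraries in the mitosis panel, at 0.08 against -1.97 to -1.29, and lies among its own group only in the Ly6 superfamily panel.

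Phagocyte and interferon genes had medians well above 0 that shrank without replicate 2. All 27 macrophage and monocyte genes lay above 0 with all libraries (median 0.65) and 20 of 27 without replicate 2 (0.19), with 4 and 6 higher at an unadjusted p under 0.05, against 6.11% and 8.16% of all genes. Fcer1g, the shared signalling chain of Fc receptors, was at 122.3, 27.0 and 97.8 FPKM against 280.5, 233 and 158, Ccr2, the receptor that draws monocytes into tissue, at 27.6, 3.63 and 23.3 against 44.5, 36.4 and 38.3, and Mrc1, the mannose receptor, at 9.10, 4.70 and 8.13 against 15.6, 10.4 and 15.1. No library of one group reached the other for these 3 genes, and none passed (adjusted p from 0.117 to 0.202 without replicate 2). Of the 27 members, 6 were higher without overlap in each fit, against 10.3% and 16.0% of all genes tested. Lower without overlap were 0 and 1, against 8.58% and 15.2%. Ctsl, the member with the highest mean, overlapped at 462, 90.7 and 582 FPKM against 466, 569 and 539. Of 18 neutrophil genes, 18 lay above 0 with all libraries (median 1.15) and 15 without replicate 2 (0.48), among them the chemokine receptor gene Cxcr2, at 4.82, 2.24 and 2.84 against 6.67, 7.61 and 6.36. The summed level of the macrophage list was 835 to 2610 FPKM in the ΔNp63-labelled and 2520 to 3190 in the ΔNp73-labelled libraries, so the groups touched, and no member of the list was at 0 in any library.

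Type I interferon response genes had a median of 0.66 with all libraries (32 of 34 above 0, 0 at an unadjusted p under 0.05) and of 0.13 without replicate 2 (24 of 34; 0 higher and 1 lower). MHC class II genes went from 0.68 (13 of 13 above 0) to 0.02 (7 of 13), and guanylate-binding proteins and interferon-γ targets from 0.63 (19 of 20) to 0.01 (10 of 20). With replicate 2 left out the deletion groups were thus close in these lists. Socs1, an inhibitor of cytokine signalling, was among the few members with a larger difference, at 30.8, 13.8 and 29.2 FPKM against 10.9, 16.5 and 19.2 (-0.94 without replicate 2, SE 0.21, adjusted p = 0.134).

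Among target genes of the p53 family 0 of 31 passed over all genes in either fit. With all libraries 3 were higher and 1 lower at an unadjusted p under 0.05, counts close to the 6.11% and 4.4% of all genes, with a median of 0.20. Of the 30 tested without replicate 2 it was 3 and 2, close to the 8.16% and 7.43% of all genes, with a median of 0.08. Bbc3, which encodes the death protein PUMA, was at 4.57, 1.57 and 5.18 FPKM against 3.20, 2.72 and 2.58, and Btg2, an antiproliferative gene, at 176, 78.3 and 235 against 109, 109 and 142, both with replicate 2 below the ΔNp73-labelled libraries. Perp, a desmosome gene induced by p53 and p63, was at 33.5, 6.89 and 37.8 against 54.4, 53.6 and 41.1, and Rrm2b, a ribonucleotide reductase subunit, at 6.69 to 8.27 against 9.39 to 10.2. The groups did not overlap for Perp and Rrm2b. Of the 31 genes, 4 were higher and 0 lower without overlap, against 10.3% and 8.58% of all genes tested. Of the 30 tested without replicate 2 it was 5 and 4, against 16.0% and 15.2%.

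Among 18 caspase and apoptosome genes, Casp4, which encodes the inflammatory caspase-11 that senses bacterial lipopolysaccharide, had the largest difference. It was at 3.13, 0.677 and 2.11 FPKM in the ΔNp63-labelled, 15.3, 14.0 and 6.34 in the ΔNp73-labelled and 2.64 and 2.70 in the control libraries (2.13, SE 0.41, adjusted p = 0.345; 1.76 without replicate 2, adjusted p = 0.115). The ΔNp73-labelled libraries thus lay above all the others, with replicate 3 the lowest of them. Diablo, which frees caspases from their inhibitors, was at 12.9, 15.9 and 11.9 against 9.48, 9.49 and 8.68 (-0.50, adjusted p = 0.421). In the Notch pathway, where Dtx1 was called without replicate 2, the receptor gene Notch2 was at 8.77, 4.03 and 8.64 FPKM against 12.3, 10.5 and 11.2, and Il2ra, the interleukin-2 receptor chain, at 30.6, 2.78 and 43.2 against 20.0, 21.9 and 23.2. Amylin (Iapp), a hormone gene, was at 11.2, 7.34 and 9.17 FPKM against 8.40, 5.94 and 7.68, and Ramp1, a partner of its receptor, at 29.6, 32.3 and 27.9 against 18.6, 21.3 and 24.6. Iapp overlapped between the groups and Ramp1 did not (-0.47, SE 0.14, adjusted p = 0.439).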

How the data were processed

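RNA of 8 thymic lymphoma libraries was extracted with TRIZOL LS and prepared with an Illumina TruSeq RNA kit, per the labels' protocols. The authors deposited 1 table of FPKM for each RefSeq transcript, made equal in distribution by quantile normalisation; per the submitters' processing notes TopHat2 2.0, Cufflinks 2.0 and the build mm9 were used, with no step given for each tool. The table holds 16589 entries under 13681 symbols, with equal sorted values in all libraries (within 1%) except in the lowest 2393 entries (14.4%). It holds no counts, so the depth is unknown and no counting interval is given. Its 35 symbols turned into dates were restored from the RefSeq identifier.

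The entry with the highest mean over the 8 libraries was kept per symbol, and genes that reached 1 FPKM in 2 or more libraries were tested with limma 3.58.1 in R 4.3.3 on log2(FPKM + 1). All 8 libraries were in 1 model (5 residual degrees of freedom, moderated by eBayes with trend, two-sided), with Benjamini-Hochberg adjustment over all 12921 genes. Lists and tables were handled with pandas 2.3.3 and numpy 2.4.6. Names and neighbours come from RefSeq GRCm38.p6, in which 13472 symbols matched; no coordinates are printed, since the files use mm9.

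The members, the gene lists and the alternatives were chosen with earlier results of these data known. Genes were named by rule: Trp53, Trp63 and Trp73; per direction up to 15 called genes with the largest difference and no overlap, filled up to 8 by p; up to 8 likewise without ΔNp63-labelled replicate 2; and per list the 4 members with the smallest p in that fit and the member with the highest mean. Small RNAs, gene models lacking a descriptive symbol, and segments of antigen receptors took no place in the rule. Some members that the rule names are not described. Alternatives were other pseudocounts, filters, entries, centring, array weights, no trend, fewer libraries and leaving out each library.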

Additional observations from a re-analysis of the deposited data

How the results depend on the processing

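No paired analysis was possible because the labels give no replicate numbers, pairs or batches. The 7 calls came to 16 with only 5 libraries (no controls and no ΔNp63-labelled replicate 2) and to 344 with array weights, which kept all 7; the weight of ΔNp63-labelled replicate 2 was 0.0567, and those of the other libraries 0.651 to 4.3. Leaving out 1 library at a time gave 6 to 19, the 19 without ΔNp63-labelled replicate 2. Over 18 alternatives H2-T10, Snora65, Rnu12, Synpr and Trim12a passed in 18, Ugt8a in 17 (adjusted p = 0.268 with FPKM of 5 or more in 2 libraries) and Extl1 in 8 of the 17 that tested it. The alternatives to the fit without replicate 2 were chosen after seeing the data. Its 19 calls came to 68 with array weights, and to 6 to 32 on leaving out 1 further library. They were 8 without ΔNp63-labelled replicate 1 and 6 without replicate 3, which leave a lone ΔNp63-labelled library assumed to vary like the other groups, and 4 of the 19 remained in each. They were 10 without ΔNp73-labelled replicate 2 (9 of the 19 remained) and 32 without ΔNp73-labelled replicate 3 (14 remained). The 2437 genes that did not overlap came to 1603 with FPKM of 5 or more in 2 libraries, and to 3033 to 4379 on leaving out 1 library of the 6, where fewer libraries make a gap more common. Dtx1, at 0.11, turned to -0.79 without ΔNp63-labelled replicate 2 and was up to 0.58 without another library (replicate 1). The number of lists with a median above 0 was 26 to 32 under all alternatives run, against 31. Centring the libraries moved the median of all genes from -0.02 to -0.03. With 3 libraries a group and no counts, the spread rests on few libraries, and differences of genes near 0 depend on the pseudocount.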

Other observations

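Fat cell genes varied between libraries across the labels. Fabp4, the fatty acid carrier of adipocytes, was at 1630, 63.3 and 1145 FPKM in the ΔNp63-labelled, 2086, 156 and 153 in the ΔNp73-labelled and 103 and 683 in the control libraries, and the adipokine gene Adipoq at 61.1, 3.76 and 40.5 against 68.3, 5.27 and 3.48. Fat genes were thus high in ΔNp63-labelled replicates 1 and 3, ΔNp73-labelled replicate 1 and control replicate 2. All 17 members of the list lay below 0 without ΔNp63-labelled replicate 2 (median -1.43), 0 passed over all genes and 1 had an unadjusted p under 0.05. The parathyroid hormone gene Pth was at 2.71, 0.326 and 0.959 FPKM in the ΔNp63-labelled and 36.0, 21.1 and 4.61 in the ΔNp73-labelled libraries, with the controls at 3.16 and 3.60. Chga, a granule protein gene of endocrine cells, followed the same order at 1.83, 1.08 and 1.40 against 19.5, 11.6 and 3.89. In mice parathyroid tissue can lie beside or in the thymus; the part of adjacent tissue in other differences was not tested. H2-Ea-ps, a class II gene that is a pseudogene in C57BL/6, was at 389, 0.786 and 5.51 FPKM in the ΔNp63-labelled, 424, 396 and 513 in the ΔNp73-labelled and 273 and 0.378 in the control libraries. Its level thus split both the ΔNp63-labelled and the control group into high and near-absent libraries. The haemoglobin genes Hbb-b2 and Hbb-b1 ran opposite ways without overlap. Hbb-b2 was at 84.9, 6.84 and 19.0 FPKM in the ΔNp63-labelled and at most 2.43 in the ΔNp73-labelled libraries. Hbb-b1 was at 3.07, 0.0338 and 2.35 against 32.5, 20.0 and 13.1. Neither passed, and whether all libraries share 1 strain background was not tested. Pth, Chga and H2-Ea-ps were picked with their values in view.

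In 5 further genes, none of which passed, the ΔNp73-labelled libraries lay above all others. Vcl, vinculin of focal adhesions, was at 11.9, 14.4 and 10.7 FPKM in the ΔNp63-labelled, 27.7, 29.3 and 21.3 in the ΔNp73-labelled and 10.9 and 10.7 in the control libraries (1.02, SE 0.17, adjusted p = 0.223; 1.13 without replicate 2, adjusted p = 0.0552). Ctnnd2, a catenin gene (1.09), Rnd3, a regulator of actin fibres (1.13), Cyr61, a matricellular protein gene (1.21), and the nuclear lamin gene Lmna (0.84) had differences of like size, with adjusted p from 0.185 to 0.345 with all libraries and from 0.0525 to 0.115 without replicate 2, and their groups did not overlap. All 5 were picked with their values in view and stand for no gene group.

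Among 17 leukotriene and prostaglandin genes, Cysltr1, a cysteinyl leukotriene receptor, was at 3.56, 1.81 and 3.00 FPKM against 6.67, 5.27 and 5.26 (0.85, SE 0.21, adjusted p = 0.373), and the prostaglandin synthase gene Ptgs1 at 7.14, 2.85 and 6.93 against 8.95, 9.63 and 9.09. Neither overlapped between the groups. Of 39 chemokine and receptor genes, 12 were lower and 3 higher at an unadjusted p under 0.05 without replicate 2, where 7.43% and 8.16% of all genes were, so the count of higher genes was near that of all genes. With all libraries it was 2 and 1, where 4.4% and 6.11% of all genes were. Ccl17, a dendritic cell chemokine, was at 9.84, 6.10 and 3.91 FPKM against 1.16, 2.49 and 1.18 (-1.51, SE 0.32, adjusted p = 0.345). E2f2, a cell cycle transcription factor gene, was at 19.6, 32.4 and 20.9 against 8.33, 7.09 and 13.4 (-1.26, SE 0.27, adjusted p = 0.345). All 3 ΔNp73-labelled libraries lay below the others for both genes.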
